A study of Mus musculus with 4 samples.

Results

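The collagen genes were followed in sorted dermal papilla cells of mouse skin with and without Sox2. A gene was counted as a collagen where its symbol was Col, a number, the letter a and a number, which names 1 collagen chain, and where its probe sets were annotated to that gene alone. This gave 44 genes, measured by 46 of the 28853 probe sets of the array, among 19938 genes in all. By the kind of structure their chains build, 11 were fibrillar collagens, 9 belonged to basement membranes, 9 were FACIT collagens, which sit on the surface of fibrils, 4 were transmembrane collagens and 11 formed beaded filaments, networks or other structures. The rule on symbols uses no measured value, but members and classes were chosen with earlier results of these data known.

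The dermal papilla is a small mesenchymal cluster in the bulb of the hair follicle that instructs the epithelial cells around it. Its cells were sorted from skin at postnatal day 5 as positive for a green fluorescent protein expressed with Sox2 (Sox2GFP) and for integrin alpha 9. The cells were taken either from Sox2 heterozygotes (Het, 2 arrays) or from conditional Sox2 knockouts (cKO, 2 arrays), and the comparison asks how loss of this SOX family transcription factor alters the expression profile of the papilla. Both groups were thus sorted by the same Sox2 reporter, and the control has a reduced dose of Sox2 and is not wild type. The sources used here do not give the Cre driver, the strain, the sex of the mice or whether mice were pooled. The replicates are labelled as biological, and what separated them is not described, so the spread behind each p-value may be technical.

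Collagens are secreted or membrane proteins made of chains that wind around each other into a triple helix, and some are built from the products of several genes, so that their chains are needed together. Chains are hydroxylated, folded and glycosylated in the endoplasmic reticulum, trimmed after secretion and cross-linked into fibrils or sheets. In the hair follicle, the papilla lies in a loose matrix rich in basement membrane components and is enclosed by a fibrillar dermal sheath.

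Each value is a log2 distance from the median that its probe set had over the 4 arrays, so that a value of 1 is 2-fold above that median. The values therefore show differences between arrays, and no level of any gene can be read or set against that of another. With 4 arrays the middle pair of values of a probe set mirror each other around 0, and a gene whose middle values lie near 0 can separate the groups by a very small distance. Differences are given as cKO minus Het with the SE of the limma fit (n = 2 arrays per group), and values of a group are given with replicate 1 first. In whole sorted samples, fewer cells of a type and less RNA per cell cannot be told apart.

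Sox2 itself stood at 0.96 and 0.87 in Het and at -0.87 and -0.94 in cKO, a difference of -1.81 ± 0.056 or 3.51-fold lower in cKO, with the groups far apart and an adjusted p of 0.345 (limma). Whether its probe set lies inside the deleted stretch is unknown here. Other genes moved with the groups or with single arrays. Xist, which silences 1 X chromosome in females, was measured at -4.08 and -0.85 in Het and at 0.85 and 1.23 in cKO, and the Y-linked Eif2s3y at 1.18 and 0.79 in Het and at -0.87 and -0.79 in cKO. The keratinocyte markers were highest in Het replicate 2 for 13 of 14 genes, against 4231 of all 19938 genes. Krt5, a keratin of basal epidermis, reached 0.97 there against -0.27 in Het replicate 1. The part of sex-linked genes and of epidermal RNA in the collagen values was not tested.

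None of the 44 collagens passed limma's test adjusted over all genes (0 of 44, against 0 of 19938 genes, or 0%), and the smallest adjusted p of a collagen was 0.936. At an unadjusted p under 0.05 there were 2 collagens, Col5a2 and Col1a1, both lower in cKO. That is 4.55% of the family against 5.28% of all genes, of which 3.41% were lower and 1.87% higher. The unmoderated statistic gave 0 collagens at that unadjusted limit, against 937 of all 19938 genes. Its adjusted test called 0 of all genes. By sign, 26 collagens were lower and 18 higher in cKO, against 9513 lower and 10420 higher of all 19938 genes. The median difference was -0.015, against 0.0034 over all genes. The median of the family thus lay near that of all genes, and 29 of its members differed by less than 0.1 in either direction.

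The larger differences lay on the lower side. A difference of -0.3 or lower was found in 6 collagens, which is 13.6% of the family against 3.93% of all genes, while 0 collagens and 1.17% of all genes were at 0.3 or higher. These 6 were Col15a1, Col14a1, Col12a1, Col1a2, Col5a2 and Col1a1. Just inside this limit lay Col1a1 at -0.31 and just outside it Col3a1 at -0.27. A difference of at least 2-fold with groups apart was found in 0 collagens and in 0.13% of all genes. The groups did not overlap in 14 collagens, against 33.5% of all genes. Of these, 9 were lower in cKO (20.5%, against 15.6% of all genes), namely Col1a1, Col1a2, Col3a1, Col5a2, Col15a1, Col9a1, Col13a1, Col23a1 and Col6a6. The other 5 were higher (11.4%, against 17.8%), namely Col5a1, Col5a3, Col4a6, Col20a1 and Col6a5. With the arrays centred on their medians or quantile normalized these counts were 12 lower and 3 higher under either setting, against 17.1% and 16.7% of all genes after centring. With an array left out they were larger by construction, at 13 to 22 lower and 10 to 16 higher. Over all genes the shares were then 30.4% to 33.4% lower and 31.6% to 38.6% higher. The highest count of lower collagens came without cKO replicate 2, against 33.4% of all genes.

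**Figure D1:**
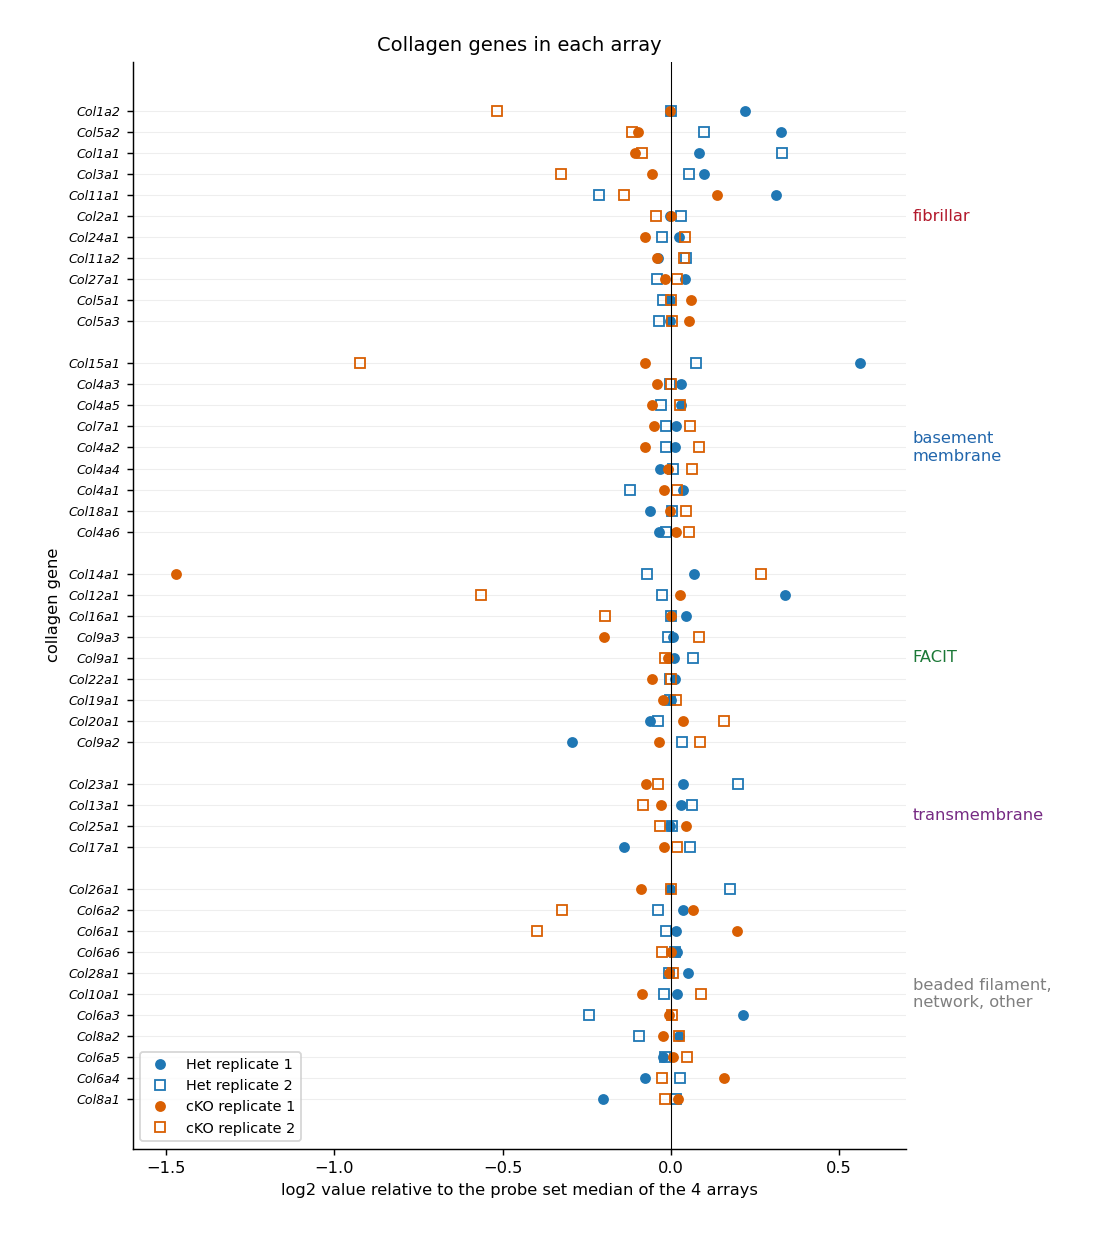
Values of the 44 collagen genes in each of the 4 arrays, as log2 distances from the probe set median, with Het in blue and cKO in orange, replicate 1 as filled circles and replicate 2 as open squares. Most genes lie close to 0 in all arrays, while Col14a1 reaches -1.47 in cKO replicate 1 and Col15a1 reaches -0.92 in cKO replicate 2.

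The collagens also varied in their spread over the arrays. The distance from the lowest to the highest array was at least 0.3 in 12 collagens (27.3%, against 23.4% of all genes) and smaller in the other 32. The 12 were Col1a1, Col1a2, Col3a1, Col5a2 and Col11a1 of the fibrillar class, Col15a1 of the basement membrane class, Col12a1, Col14a1 and Col9a2 of the FACIT class, and the collagen VI genes Col6a1, Col6a2 and Col6a3. Of these, 10 were lower in cKO by their means, 5 with groups that did not overlap, and their median difference was -0.29. All 4675 genes with such a spread had a median difference of -0.11, so they too lay lower. Among them, genes lower by their means or with separate groups were not counted. The counts of 10 and 5 thus have no share to be read against. The narrow spread of the remaining collagens does not show whether they are quiet or steadily expressed, since no level is known.

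Fibrillar collagens form the cable-like fibrils of dermis, tendon and bone. Col1a1 and Col1a2 encode the chains of collagen I, the main fibril protein of skin, and Col3a1 the chain of collagen III, which forms fibrils together with it. Col5a2 encodes a chain of collagen V, which starts fibrils and limits their width. These 4 genes were the fibrillar members lower in both cKO arrays than in both Het arrays. Over the class of 11 genes, 9 were lower and 2 higher by their means, against 9513 and 10420 of all 19938 genes. The median difference was -0.037, and groups did not overlap in 4 genes lower (36.4%, against 15.6% of all genes) and 2 higher (18.2%, against 17.8%).

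Col1a2 stood at 0.22 and 0.0008 in Het and at -0.0008 and -0.52 in cKO. Het replicate 2 and cKO replicate 1 were almost level, and the groups were set apart by a distance of 0.0016. The difference was -0.37 ± 0.21, or 1.29-fold lower, with an adjusted p of 0.979 (limma) and a 95% interval of -0.99 to 0.26. Without cKO replicate 2 it was -0.11, and without cKO replicate 1 it was -0.63. Col1a1, the partner chain, stood at 0.086 and 0.33 in Het and at -0.11 and -0.086 in cKO. Here both cKO arrays were close together, Het replicate 2 was the highest array, and the groups were 0.17 apart. Col1a1 differed by -0.31 ± 0.099, 1.24-fold lower, with an adjusted p of 0.936 (limma) and a 95% interval of -0.60 to -0.014, and by -0.18 without Het replicate 2. Both chains of collagen I thus had lower means in cKO without passing the test, and they followed the arrays in different orders, with Col1a2 lowest in cKO replicate 2 and Col1a1 lowest in cKO replicate 1.

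Markers of dermal fibroblasts, which make collagen I and lie next to the papilla, also varied between the arrays. Het replicate 2 was the highest array for 6 of 13 genes, against 4231 of all 19938 genes. The list had array medians of -0.012 and 0.088 for Het, with 0.012 and -0.018 for cKO. Of the 13, 3 were lower and 3 higher in cKO with groups that did not overlap (23.1% each, against 15.6% and 17.8% of all genes). The members were not alike, and 4 of the 13 were lowest in Het replicate 2, against 4308 of all 19938 genes. Among these 4 were Twist2 at -0.29, Pdgfra at -0.20 and Gsn at -0.16. Dpt, Dcn and Lum encode the fibril-binding proteins dermatopontin, decorin and lumican. Named for their high values in Het replicate 2, they stood at 0.70, 0.55 and 0.45 there. The values in Het replicate 1 were -0.20, -0.012 and 0.17 in the same order. Of the 4 lower fibrillar genes, Col1a1 was the 1 that had its highest value in Het replicate 2. The part of fibroblast RNA in its value was not tested.

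Col3a1 stood at 0.10 and 0.055 in Het and at -0.055 and -0.33 in cKO, with Het replicates close together and cKO replicate 2 the lowest array. It differed by -0.27 ± 0.11, 1.2-fold lower (adjusted p = 0.944, limma), and by -0.13 without cKO replicate 2. Col5a2, its neighbour on chromosome 1 with no protein-coding gene between them, stood at 0.33 and 0.099 in Het and at -0.099 and -0.12 in cKO. Its cKO arrays were nearly equal and Het replicate 1 was the highest. The difference was -0.32 ± 0.093, 1.25-fold lower, with an adjusted p of 0.936 (limma) and a 95% interval of -0.59 to -0.046, and it was -0.21 without Het replicate 1. Both genes of this pair were lower in cKO, and both had the order Het replicate 1, Het replicate 2, cKO replicate 1, cKO replicate 2 from high to low.

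The chains of collagen V did not share one pattern. Col5a1, the chain that most collagen V molecules contain, stood at -0.0015 and -0.024 in Het and at 0.061 and 0.0015 in cKO and differed by 0.044 ± 0.042, with a 95% interval of -0.079 to 0.17. Col5a3 stood at -0.0027 and -0.035 in Het and at 0.055 and 0.0027 in cKO and differed by 0.048 ± 0.042. In both, the lower cKO array lay above the higher Het array, by distances of 0.0030 and 0.0055, while Col5a2 was lower. The medians of the arrays that bounded these distances were -0.00366 in Het replicate 1 and 0.0043 in cKO replicate 2. With the array medians taken off, the groups of Col5a1 and of Col5a3 overlapped. The difference between these chains was not tested. Among the other fibrillar genes, Col11a1, a fibril chain related to those of collagen V, stood at 0.31 and -0.21 in Het and at 0.14 and -0.14 in cKO. Its highest and its lowest array were both Het, and the difference was -0.051 ± 0.23. The cartilage collagen genes Col2a1 and Col11a2 and the fibrillar genes Col24a1 and Col27a1 had overlapping groups and differences from -0.037 to -0.0005.

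**Figure D2:**
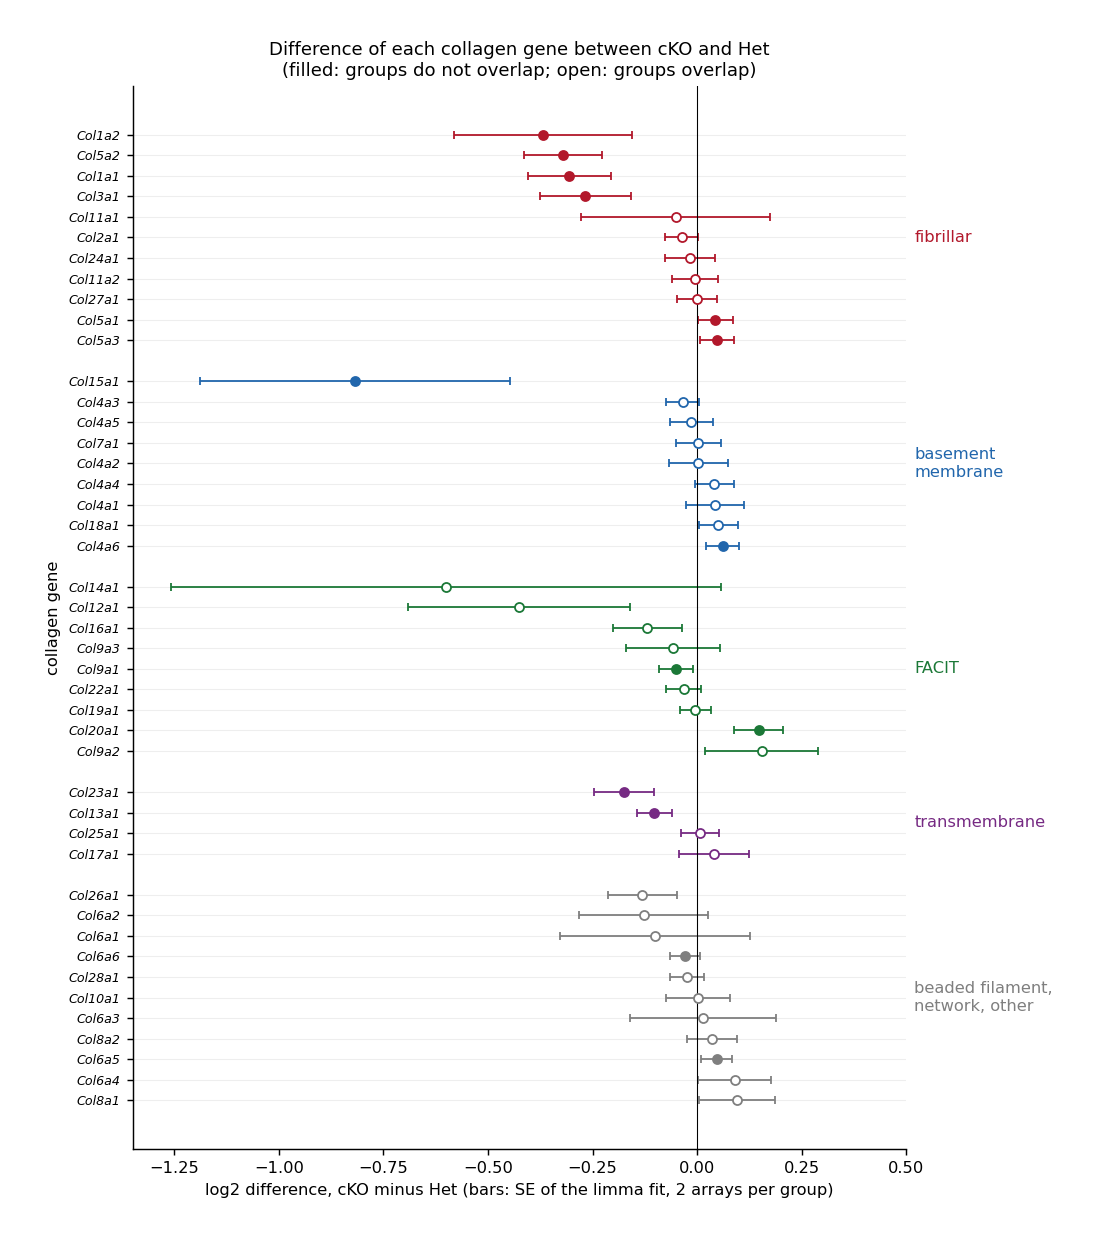
Log2 difference between cKO and Het for each collagen gene, in 5 structural classes, with bars for the SE of the limma fit over 2 arrays per group and filled points where the groups do not overlap. Col1a2, Col5a2, Col1a1, Col3a1 and Col15a1 lie between -0.82 and -0.27 with filled points, while the collagen IV genes lie between -0.034 and 0.061.

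Basement membrane collagens make or anchor the sheet between epithelium and mesenchyme. Col15a1 had the largest difference of the 44 collagens and stood apart from the other 8 genes of its class, which lay between -0.034 and 0.061. Its product is a collagen with proteoglycan side chains that ties basement membranes to the fibrils beneath them. It stood at 0.56 and 0.075 in Het and at -0.075 and -0.92 in cKO. The difference was -0.82 ± 0.37, or 1.76-fold lower, with an adjusted p of 0.958 (limma) and a 95% interval of -1.91 to 0.27 that includes 0. The groups were 0.15 apart, and the distance between the cKO replicates, 0.85, exceeded the difference. Without cKO replicate 2 the difference was -0.39, and without cKO replicate 1 it was -1.24. By its spread over the arrays it ranked 45 among the 19938 genes.

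Col18a1, the closest relative of Col15a1 and the source of the fragment endostatin, stood at -0.063 and 0.0032 in Het and at -0.0032 and 0.045 in cKO and differed by 0.051 ± 0.046 with overlapping groups. The collagen IV genes, whose chains form the network of every basement membrane, lie on the chromosomes as neighbouring pairs that point away from each other. The starts of Col4a1 and Col4a2 lie 21 bases apart on opposite strands, and those of Col4a5 and Col4a6 lie 1343 bases apart. Col4a1 differed by 0.042 ± 0.070 and Col4a2, its partner in the most common collagen IV, by 0.0034 ± 0.070, both with overlapping groups. The 95% intervals were -0.16 to 0.25 and -0.20 to 0.21. Col4a1 stood at 0.035 and -0.12 in Het and at -0.020 and 0.020 in cKO and Col4a2 at 0.013 and -0.013 in Het and at -0.077 and 0.084 in cKO. In Het the partners shared the order of the arrays, and so they did in cKO. In the pair Col4a3 and Col4a4 the differences were -0.034 ± 0.040 and 0.041 ± 0.046, and in the X-linked pair Col4a5 and Col4a6 they were -0.013 ± 0.052 and 0.061 ± 0.039. Col4a6 was the 1 collagen IV gene whose groups did not overlap, at -0.036 and -0.015 in Het and at 0.015 and 0.056 in cKO. Col7a1, the gene of the anchoring fibrils made largely by keratinocytes, differed by 0.0029 ± 0.054. Over the 9 genes the median difference was 0.0034, with 3 genes lower and 6 higher by their means. Groups did not overlap in 1 gene lower and 1 higher (11.1% each, against 15.6% and 17.8% of all genes).

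The stretch before the transcript start is shown for Col1a2, Col3a1 and Col15a1, which had the same order of the 4 arrays and differences of -0.27 or lower. That order, Het replicate 1, Het replicate 2, cKO replicate 1, cKO replicate 2 from high to low, was found in 5 collagens, the others being Col5a2, which is named only, and Col6a6, left out for its small difference of -0.028 (11.4% of the family, against 5.61% of all genes). The sequences are the 250 bases upstream of the RefSeq start in GRCm38.p6, all on the plus strand, at chr6:4505368-4505617, chr1:45311288-45311537 and chr4:47207762-47208011. Capitals mark matches, on either strand, to the letters ACAAAG and AACAAT, which are forms of the core bound by SOX proteins, to the CCAAT box and to the TATA box letters TATAAA.
Col1a2: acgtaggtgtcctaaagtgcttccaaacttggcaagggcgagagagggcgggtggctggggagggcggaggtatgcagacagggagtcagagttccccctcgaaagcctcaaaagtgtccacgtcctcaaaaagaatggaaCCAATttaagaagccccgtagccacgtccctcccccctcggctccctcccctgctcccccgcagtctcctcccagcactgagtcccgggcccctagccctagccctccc
Col3a1: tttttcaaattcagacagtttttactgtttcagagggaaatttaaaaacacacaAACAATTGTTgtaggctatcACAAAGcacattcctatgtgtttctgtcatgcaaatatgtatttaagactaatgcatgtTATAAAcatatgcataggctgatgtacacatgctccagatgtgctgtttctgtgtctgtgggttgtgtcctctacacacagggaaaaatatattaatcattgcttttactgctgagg
Col15a1: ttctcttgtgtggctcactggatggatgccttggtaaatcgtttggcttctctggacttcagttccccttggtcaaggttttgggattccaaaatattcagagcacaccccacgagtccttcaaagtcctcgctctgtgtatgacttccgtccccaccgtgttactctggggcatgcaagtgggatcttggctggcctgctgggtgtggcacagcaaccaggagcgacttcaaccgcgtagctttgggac

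The Col1a2 stretch held 1 match, a CCAAT box that begins at position -109 from the start. The Col3a1 stretch held ACAAAG once at position -176. It also held AACAAT on both strands in overlapping letters from position -196, and TATAAA from position -117, while the Col15a1 stretch held none of the 4. Of the 44 collagens 35 were matched to such stretches, 38 in all, and a gene was counted where any of its stretches held a match. The shares over all genes count single stretches, so the units differ. ACAAAG or its reverse was found in 4 of the 35, Col3a1, Col10a1, Col20a1 and Col28a1. It was found in 16.5% of the 32851 stretches of the same length over all genes. AACAAT was found in 1 of the 35, Col3a1, and in 9.42% of all stretches. CCAAT was found in 13 and in 33.8% of all, and TATAAA in 5 and in 12.4% of all. A match gives letters only and was not linked to binding of SOX2 here.

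FACIT collagens do not form fibrils themselves but bind to the surface of others and space them. Col12a1 and Col14a1, both found along collagen I fibrils in skin, had the widest spread of the class. Col14a1 stood at 0.069 and -0.069 in Het and at -1.47 and 0.27 in cKO. The value of cKO replicate 1 was the lowest of all 28853 probe sets of that array, whereas cKO replicate 2 was above both Het arrays, a distance of 1.74 or 3.34-fold between replicates of 1 group. The difference of -0.60 ± 0.66 (adjusted p = 0.992, limma) was thus smaller than the distance between the cKO replicates, and without cKO replicate 1 it turned to 0.27. By its spread over the arrays it ranked 31 among the 19938 genes.

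Col12a1 stood at 0.34 and -0.027 in Het and at 0.027 and -0.57 in cKO, with cKO replicate 1 just above Het replicate 2, so that the groups overlapped. It differed by -0.43 ± 0.26 (adjusted p = 0.982, limma), and by -0.13 without cKO replicate 2. Col16a1, a FACIT of fine fibrils near basement membranes, had the same order of arrays at 0.045 and -0.0004 in Het and at 0.0004 and -0.19 in cKO and differed by -0.12 ± 0.083. Col20a1, whose function is little known, was the FACIT gene with the lowest unadjusted p. It stood at -0.061 and -0.037 in Het and at 0.037 and 0.16 in cKO and was higher in both cKO arrays, with a difference of 0.15 ± 0.058 (adjusted p = 0.943, limma). The chains of collagen IX, best known from cartilage, differed by little against their SE, with Col9a1 at -0.049 ± 0.041, Col9a2 at 0.15 ± 0.14 and Col9a3 at -0.058 ± 0.11, and of these Col9a1 alone had groups that did not overlap. Col9a2 was lowest in Het replicate 1 at -0.29 and its difference was -0.0087 without that array, while Col9a3 was at 0.083 without cKO replicate 1. Col19a1 and Col22a1, FACIT genes of muscle and tissue junctions, differed by -0.0040 ± 0.038 and -0.032 ± 0.041 with overlapping groups. The class had a median difference of -0.049, with 7 of 9 genes lower by their means, against 9513 of all 19938 genes. Groups did not overlap in 1 gene lower and 1 higher (11.1% each, against 15.6% and 17.8% of all genes).

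Transmembrane collagens span the cell membrane and carry their helices outside the cell. Col23a1 and Col13a1 were lower in both cKO arrays than in both Het arrays, which is 2 of 4 genes (50%, against 15.6% of all genes). In this class 0 genes were higher with separate groups, against 17.8% of all genes. Col23a1 stood at 0.037 and 0.20 in Het and at -0.074 and -0.037 in cKO and differed by -0.17 ± 0.072, 1.13-fold lower (adjusted p = 0.948, limma). Col13a1, known from neuromuscular synapses and cell contacts, stood at 0.030 and 0.064 in Het and at -0.030 and -0.082 in cKO and differed by -0.10 ± 0.042 (adjusted p = 0.947, limma). Both differences were larger than the distance between replicates in either group, as for 10.1% of all genes on the lower side. The 95% intervals were -0.38 to 0.036 and -0.23 to 0.020. Col17a1, the collagen of keratinocyte hemidesmosomes, stood at -0.14 and 0.057 in Het and at -0.020 and 0.020 in cKO and differed by 0.041 ± 0.083 with overlapping groups. Its highest array was Het replicate 2, as for most keratinocyte markers, at 0.057 against 0.97 for Krt5. Col25a1, a collagen of neurons, differed by 0.0068 ± 0.046 with overlapping groups.

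The remaining 11 genes encode chains of beaded filaments (collagen VI), of short-chain networks (collagens VIII and X) and of other structures, and had a median difference of 0.0026. Col6a1 and Col6a2, which are neighbours on chromosome 10 and give chains of the same collagen VI molecule, had the same order of arrays. Col6a1 stood at 0.015 and -0.015 in Het and at 0.20 and -0.40 in cKO and Col6a2 at 0.038 and -0.038 in Het and at 0.068 and -0.32 in cKO. In both genes cKO replicate 1 was the highest and cKO replicate 2 the lowest array, so that the groups overlapped, with differences of -0.10 ± 0.23 and -0.13 ± 0.15. Without cKO replicate 2 the differences turned to 0.20 and 0.068. Col6a3, the largest chain of that molecule, followed another order, at 0.21 and -0.24 in Het and at -0.0043 and 0.0043 in cKO, and differed by 0.014 ± 0.18. The alternative chains Col6a4, Col6a5 and Col6a6 differed by 0.090 ± 0.087, 0.047 ± 0.038 and -0.028 ± 0.036. The groups of Col6a5 and Col6a6 did not overlap, with distances of 0.024 and 0.013. These were the 1 higher and the 1 lower gene of the 11 (9.09% each, against 17.8% and 15.6% of all genes). Col26a1, with the lowest unadjusted p of these genes, stood at -0.0014 and 0.18 in Het and at -0.089 and 0.0014 in cKO and differed by -0.13 ± 0.083 with overlapping groups. Col8a1, of the hexagonal network around vessels and in the eye, was lowest in Het replicate 1, standing at -0.20 and 0.016 in Het and at 0.021 and -0.016 in cKO. Col6a4 was highest in cKO replicate 1, standing at -0.075 and 0.027 in Het and at 0.16 and -0.027 in cKO. In both genes the groups overlapped. The network genes Col8a1, Col8a2 and Col10a1 and the related Col28a1 had overlapping groups and differences from -0.024 to 0.095.

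Set against the distance between replicates, 8 of the 44 collagens (18.2%, against 21.7% of all genes) differed between the groups by more than the larger of the distances within Het and within cKO. Lower in cKO by this measure were Col1a1, Col5a2, Col23a1, Col13a1 and Col6a6 (5 genes, against 10.1% of all genes), and higher were Col20a1, Col4a6 and Col6a5 (3 genes, against 11.6%). Col3a1 narrowly missed this, with a difference of -0.27 and a marginally larger distance of 0.27 within cKO. The genes with larger differences, Col15a1, Col14a1, Col12a1 and Col1a2, each had replicates of cKO further apart than the groups.

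**Figure D3:**
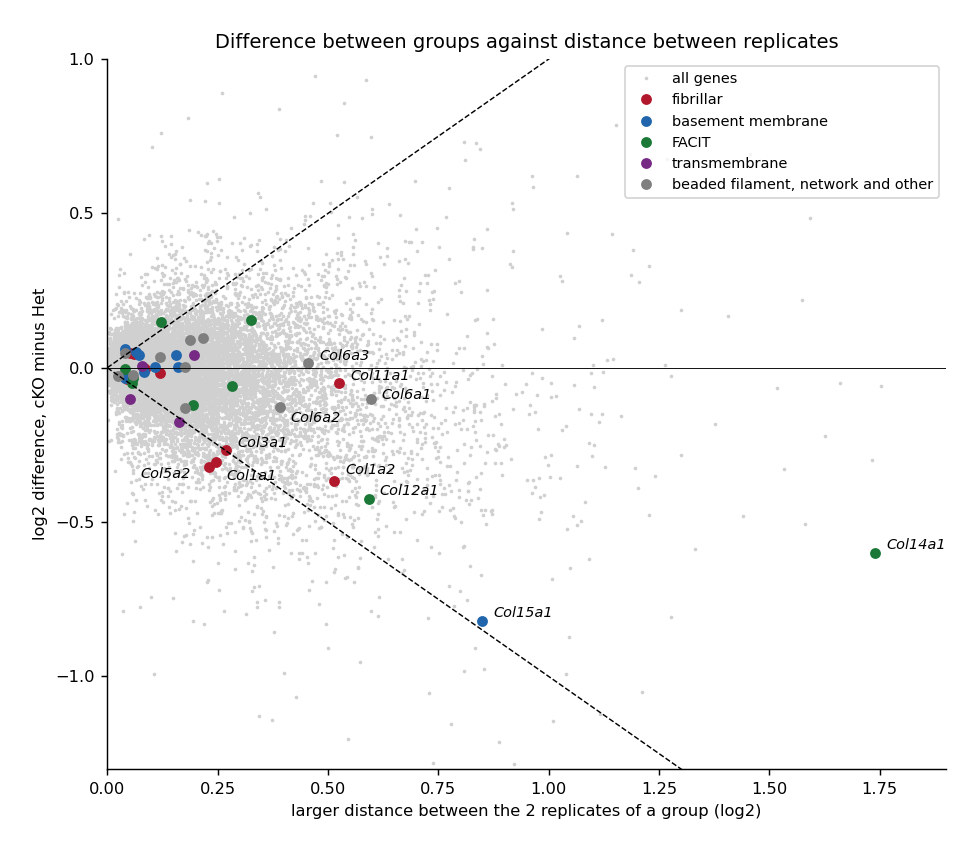
Log2 difference between cKO and Het (vertical) against the larger distance between the 2 replicates of a group (horizontal, log2) for all genes in grey and for the collagens in the colours of their classes. Points above the upper or below the lower dashed line differ by more than the replicates, as Col1a1 and Col5a2 do, and 17 genes lie outside the axes.

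Leaving out 1 array at a time kept the sign of 18 of the 29 collagens described by the rule for named genes and changed it in 11, among them Col14a1, Col6a1, Col6a2 and Col6a3. The signs of Col1a1, Col1a2, Col3a1, Col5a2, Col15a1, Col12a1, Col16a1, Col23a1 and Col13a1 were kept, and the sizes moved. Col15a1 ranged from -1.24 to -0.39 and Col12a1 from -0.72 to -0.13. The range was narrower for Col3a1, from -0.40 to -0.13, and for Col13a1, from -0.13 to -0.076.

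**Figure D4:**
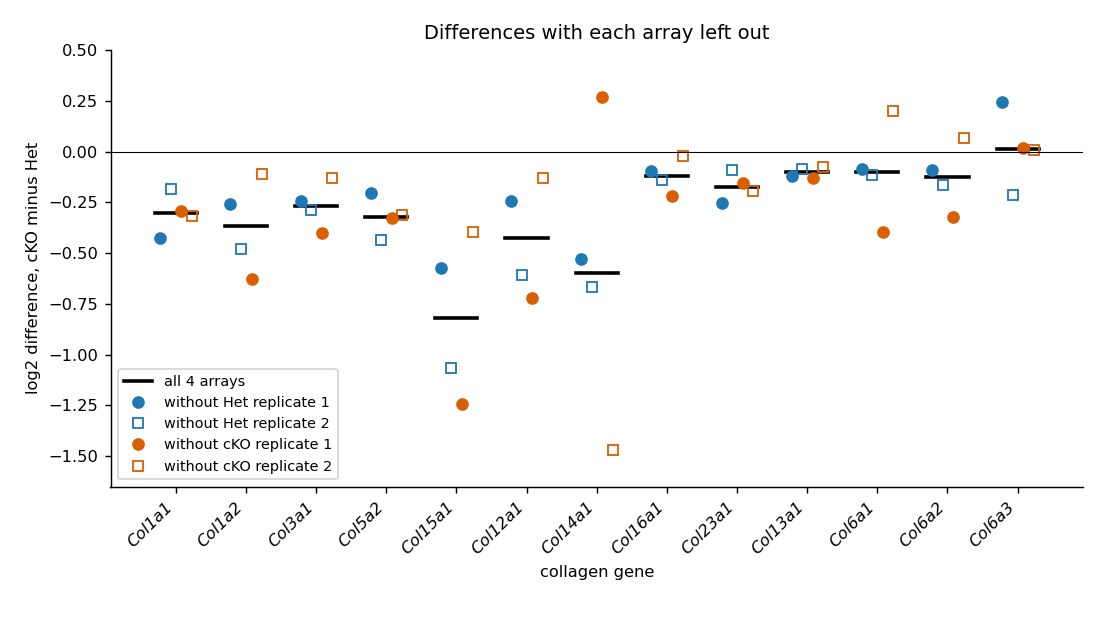
Log2 difference between cKO and Het of 13 collagens with all 4 arrays (black bars) and with each array left out (blue for Het, orange for cKO, filled circles for replicate 1 and open squares for replicate 2). Col15a1 moves from -1.24 to -0.39 and Col14a1 crosses 0 without cKO replicate 1.

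Genes that modify and fold collagen chains lay lower in cKO by their means in 20 of 24 measured cases, against 9513 of all 19938 genes. By the adjusted test 0 of them passed over all genes. Their median spread over the arrays was 0.47, against 0.14 over all genes. All 4675 genes with a spread of at least 0.3 had a median difference of -0.11. The related lists described from here on had median spreads from 0.19 to 0.53. The median difference was -0.15, and groups did not overlap in 8 genes lower (33.3%, against 15.6% of all genes) and 1 higher. By limma 2 of the 24, P4hb and P3h2, had an unadjusted p under 0.05, against 5.28% of all genes. Ppib, a proline isomerase of the collagen folding complex, stood at 0.31 and 0.087 in Het and at -0.087 and -0.48 in cKO and differed by -0.48 ± 0.17 (adjusted p = 0.937, limma). Crtap, its partner in the complex that hydroxylates proline, differed by -0.42 ± 0.16, and Fkbp14, another folding enzyme of the endoplasmic reticulum, by -0.40 ± 0.21. All 3 had the order of arrays seen in Col1a2. P4hb, a subunit of the main prolyl hydroxylase, differed by -0.32 ± 0.10 and the collagen chaperone gene Serpinh1 by -0.14 ± 0.18, the latter with overlapping groups. The list followed single arrays. The medians of its arrays came to 0.26 and -0.012 in Het and 0.016 and -0.22 in cKO, 14 of 24 genes were highest in Het replicate 1 (25.4% of all genes) and 20 of 24 were lowest in cKO replicate 2 (25.6%). Its median was -0.022 without cKO replicate 2 and -0.056 without Het replicate 1.

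Genes for the trimming and cross-linking of collagen, not all of them enzymes, had a median difference of -0.059 over 14 measured genes. Where groups did not overlap, 3 were lower and 1 higher (21.4% and 7.14%, against 15.6% and 17.8% of all genes). By limma 0 passed over all genes and 0 had an unadjusted p under 0.05, against 5.28% of all genes. Pcolce, which enhances removal of the propeptide, differed by -0.45 ± 0.24 and by -0.16 without Het replicate 1. Tgm2, a cross-linking transglutaminase, differed by -0.20 ± 0.096 and Tll2, a protease related to the procollagen proteinase, by 0.085 ± 0.038. Lox, the lysyl oxidase gene, was at -0.034 ± 0.11 with overlapping groups.

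Proteins that coat fibrils had a median difference of -0.085 over 14 genes, 4 lower and 1 higher with groups that did not overlap (28.6% and 7.14%, against 15.6% and 17.8% of all genes). By limma 0 passed over all genes and 2 of the 14, Lum and Thbs2, had an unadjusted p under 0.05, against 5.28% of all genes. Lum stood at 0.17 and 0.45 in Het and at -0.28 and -0.17 in cKO and differed by -0.54 ± 0.12, and Thbs2, a thrombospondin that affects fibril shape, stood at 0.15 and 0.11 in Het and at -0.11 and -0.36 in cKO and differed by -0.36 ± 0.10. Podn, a small leucine-rich proteoglycan gene, differed by -0.096 ± 0.037. The list shares Dpt, Dcn and Lum with the fibroblast markers described above.

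The partners of collagen IV in basement membranes lay lower by their median than the collagen IV genes themselves. Of 17 genes, 8 were lower in both cKO arrays (47.1%, against 15.6% of all genes) and 1 was higher, and the median difference was -0.11, against 0.022 for the 6 collagen IV genes. The median of the partners was -0.071 with quantile normalization, -0.070 without Het replicate 2 and -0.063 without cKO replicate 2. That contrast was not tested. By limma 0 of the 17 passed over all genes and 1, Hspg2, had an unadjusted p under 0.05, against 5.28% of all genes. Fbln1, the gene of the matrix protein fibulin 1, differed by -0.38 ± 0.14, the laminin chain gene Lamc1 by -0.36 ± 0.13 and Frem2, of a complex that holds epidermis to dermis, by -0.33 ± 0.18. Hspg2, the perlecan gene, stood at 0.12 and 0.080 in Het and at -0.30 and -0.080 in cKO and differed by -0.29 ± 0.089. Without Het replicate 1, Frem2 was at -0.092, Fbln1 at -0.20 and Lamc1 at -0.21. Fbln1 is also among the fibroblast markers.

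Among collagen receptors and related surface proteins, 4 of 14 measured genes were lower and 2 higher with groups that did not overlap (28.6% and 14.3%, against 15.6% and 17.8% of all genes), and the median difference was -0.023, or -0.066 without Het replicate 2. By limma 0 passed over all genes and 3 of the 14, Itga1, Cd44 and Ddr1, had an unadjusted p under 0.05, against 5.28% of all genes. Itga1, the integrin alpha chain that binds collagens I and IV, stood at 0.41 and 0.22 in Het and at -0.41 and -0.22 in cKO. Both cKO arrays lay well below both Het arrays, and the difference was -0.63 ± 0.11, 1.54-fold lower, with an adjusted p of 0.897 (limma) and a range from -0.72 to -0.53 with 1 array left out. Cd44, a hyaluronan receptor that also binds collagen, differed by -0.56 ± 0.13 and Ddr1, a collagen-activated tyrosine kinase, by -0.17 ± 0.043. Ddr2, the related kinase for fibrillar collagens, was on the other side at 0.11 ± 0.050, also with groups that did not overlap. Itgb1, the integrin beta chain that pairs with Itga1, was at -0.0041 ± 0.12 with overlapping groups.

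Collagen-degrading enzymes went both ways. Groups did not overlap in 2 of 11 measured genes lower and 5 higher (18.2% and 45.5%, against 15.6% and 17.8% of all genes). By their means 5 were lower and 6 higher, and the median difference was 0.013. By limma 0 passed over all genes and 2 of the 11, Fap and Mmp3, had an unadjusted p under 0.05, against 5.28% of all genes. Fap, a surface protease that cleaves denatured collagen, stood at -0.18 and -0.37 in Het and at 0.36 and 0.18 in cKO and was higher in both cKO arrays by 0.54 ± 0.10, 1.46-fold (adjusted p = 0.897, limma). Mmp3, a stromelysin, was higher by 0.24 ± 0.039, and its groups did not overlap. The other higher genes, Mmp8, Mmp9 and Ctsl, had groups set apart by distances of 0.0094, 0.013 and 0.0070. Genes with overlapping groups were Mmp14 at -0.36, Mmp16 at -0.30, Ctsb at -0.36 and Mmp13 at 0.0135. Ctsk, the collagen-digesting cathepsin K, differed by -1.05 ± 0.47, standing at 1.36 and 0.14 in Het and at -0.14 and -0.45 in cKO, and its difference was -0.44 without Het replicate 1. Mmp2, gelatinase A, differed by -0.30 ± 0.13, and by -0.15 without Het replicate 1.

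**Figure D5:**
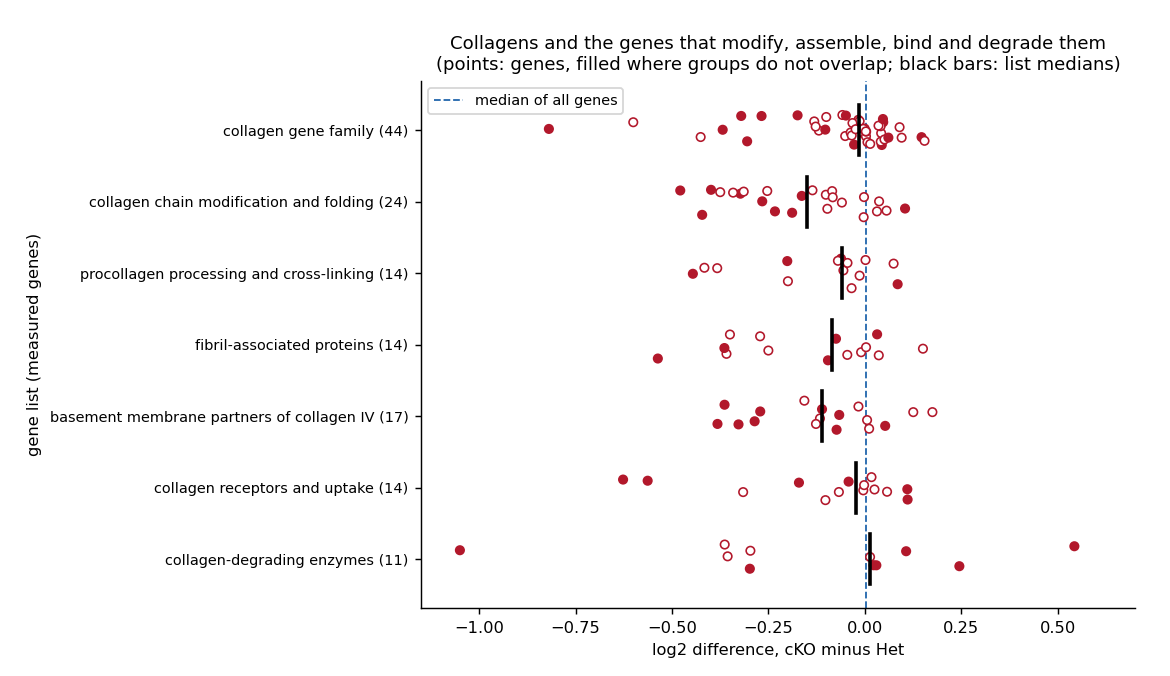
Log2 difference between cKO and Het for the 44 collagens and for 6 lists of genes that modify, process, coat, anchor, bind or degrade collagen, 1 point per gene, filled where the groups do not overlap, with black bars for the list medians and a dashed line for the median of all genes. The list medians run from -0.15 for chain modification and folding to 0.013 for the degrading enzymes, with Ctsk at -1.05 and Fap at 0.54 at its ends.

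Markers of other cells that contribute collagens were set beside these values, and counts of genes with groups that did not overlap are to be read against 15.6% of all genes lower and 17.8% higher. Endothelial markers had 3 of 12 genes lower and 4 higher with groups that did not overlap and a median difference of -0.018. Dermal sheath and smooth muscle markers, of the collagen-rich sheath around the follicle, had 2 of 11 lower and 1 higher with a median of -0.027, and Schwann and glial markers 3 of 10 lower and 1 higher with a median of -0.082. Melanocyte markers had 0 of 10 genes with groups that did not overlap and were highest in Het replicate 2 for 7, against 4231 of all 19938 genes. Adipocyte markers had 2 of 7 lower and immune markers 3 of 10 lower and 2 higher. The dermal papilla markers, Sox2 among them, had 4 of 16 lower and 4 higher and a median of 0.0028. The keratinocyte markers had 3 of 14 lower and 0 higher with a median of -0.084. How much RNA these cells gave to each sample cannot be read from values without a level, nor whether the papilla markers are present, and their part in the collagen values was not tested.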

How the data were processed

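Gene expression was measured on Affymetrix arrays from 4 sorted samples. The authors made the deposited log2 values with RMA, per the submitters' processing notes. They name no base for the logarithm, and log2, which RMA gives, was assumed. The sources used here give no software version or genome build. The median of each probe set over the 4 arrays was 0 within 1e-06, so the values had been centred and no level, background or filter on dim probe sets could be had; the array medians lay between -0.00366 and 0.0043. Of the 28853 probe sets, 21789 named 1 gene in the platform annotation and were averaged per gene, 1621 named several and 5443 had none listed. Symbols were checked against GRCm38.p6, which changed 0.

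The comparison used limma 3.58.1 under R 4.3.3 (lmFit, then eBayes, group as the only term, two-sided, Benjamini-Hochberg adjustment over 19938 genes, threshold 0.05), with 2 residual and 1.52 prior degrees of freedom. The fit was tested on simulated data. The collagen classes, the related lists and cell type lists and the members themselves were chosen with earlier results of these data known. Named by rule were Sox2, 19 collagens of the main structures, collagens with separate groups and a difference of at least 0.3, the lowest p of each class, chains of shared molecules or neighbouring pairs, and the 3 largest differences with separate groups of each related list, 48 genes in all. Other genes were named after their values were seen. Alternatives were array centring, quantile normalization, probe sets as features, the replicate number as a block, a robust prior, an unmoderated statistic, each array left out and a basement membrane class of collagen IV alone. Those for the related lists were added after the data were seen. Promoter stretches are from RefSeq. Plots were made with Python 3.11.15 and matplotlib 3.10.9.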

Additional observations from a re-analysis of the deposited data

How the results depend on the processing

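No collagen passed limma's test under any of the 10 alternatives, but neither did any of the genes in all (0 calls in each), so this says nothing of stability. At an unadjusted p under 0.05 there were 0 to 7 collagens and 769 to 1647 genes, the 7 coming without cKO replicate 1 together with the 1647. Centring the arrays or quantile normalization left 3 collagens higher with separate groups in place of 5. With centring, the groups of Col5a1 and Col5a3 came to overlap once the array medians were taken off. For quantile normalization the cause was not tested. With 1 array left out, the collagens lower with separate groups numbered 13 to 22 and those higher 10 to 16, where 3 arrays separate more genes by construction. Over all genes 30.4% to 33.4% were then lower and 31.6% to 38.6% higher. With 1 array left out, the median difference ranged from -0.037 to 0.015 for the family, from -0.059 to -0.043 for fibrillar (-0.037 with all arrays, -0.023 with quantile normalization), -0.051 to 0.062 for basement membrane, -0.051 to 0.016 for FACIT (-0.061 with quantile normalization), -0.089 to -0.028 for transmembrane and -0.031 to 0.011 for the other collagens. Centred arrays gave -0.0002 for basement membrane and -0.0010 for the other collagens. The same omissions turned the sign of 11 named collagens, with ranges from -0.035 to 0.12 for Col4a1, -0.077 to 0.084 for Col4a2, -1.47 to 0.27 for Col14a1, -0.057 to 0.14 for Col17a1, -0.033 to 0.046 for Col25a1, -0.40 to 0.20 for Col6a1, -0.32 to 0.068 for Col6a2, -0.21 to 0.24 for Col6a3, -0.0087 to 0.32 for Col9a2, -0.20 to 0.083 for Col9a3 and -0.055 to 0.028 for Col4a5. In the other settings 287 of 288 values of named genes kept their sign, and Col4a2 turned from 0.0034 to -0.0002 with centred arrays. Most of these values could not change. The block, the robust prior and the unmoderated statistic leave a difference the same by construction. So do probe sets as features, since each named gene has a single probe set. Only centring and quantile normalization could turn a sign. With the replicate block, which was not used for the main comparison because the labels do not say that a number marks a shared litter or day, 0 collagens passed and 6 had an unadjusted p under 0.05, against 2 without it, while the count over all genes went from 1053 to 1625. Deviations of same-numbered arrays correlated at 0.304 over genes. The differences and medians are the same with the replicate block by construction, and the block gives no value for counts of separate groups. With 2 arrays per group even Sox2, a large and even difference, did not pass, and without intensities over background which collagens are expressed is unknown.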

Other observations

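Col6a5 and Col6a6 were the 2 collagens measured by 2 probe sets each. The probe sets of Col6a5 differed between cKO and Het by 0.051 and 0.042. Those of Col6a6 differed by -0.045 and -0.011 and each had overlapping groups, whereas their mean had groups that did not overlap.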
